A study of Medicago sativa with 3 samples.

Results

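The transcripts described here carry the names of the plant circadian clock, of flowering regulators and of light receptors. They were taken from a de novo transcriptome of alfalfa (Medicago sativa ssp. falcata, cultivar Hulunbeier) by words in the annotation. The protein matches listed for a transcript, the best or a later one, had to contain a clock, flowering or receptor name. Examples are GIGANTEA, CONSTANS, phytochrome, cryptochrome and phototropin. Both its protein and its nucleotide matches had to name a legume. This rule found 119 of the 95646 transcripts, out of 52669 with legume matches in both searches. Expression played no part in the rule. The study asked which transcripts respond to sheep grazing, and which differ between grazed plants selected as grazing tolerant and as grazing intolerant.

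There were 3 libraries, 1 per group: tolerant plants (MF200401) that were not grazed, tolerant plants after grazing, which were separate propagules of the same clones, and intolerant plants (MF200402) after grazing. Each library was made from RNA of 10 clonally propagated plants per population, with equal amounts of leaf, stem and root RNA pooled, from tissue taken a week after the sheep were removed. Plants kept from the sheep grew in another, fenced block and were cut back when the sheep left, so grazing and block cannot be told apart, and no intolerant ungrazed library was sequenced. The hour of day at which tissue was taken is not given in the sources used here. With 1 library per group there is no replicate check: no p-value is given, and every interval below is an exact Clopper-Pearson 95% interval on fragments that covers counting error only.

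The plant clock is a set of transcription factors that repress one another in turn through the day. The MYB proteins LHY and CCA1 peak near dawn, the pseudo-response regulators follow through the day, and GIGANTEA, TOC1 and the evening complex with ELF3 act towards dusk; these roles are best known from Arabidopsis. Light reaches the clock through phytochromes (red and far-red light) and cryptochromes (blue light), while phototropins, also blue light receptors, steer bending, chloroplast position and stomatal opening. CONSTANS reads day length by combining clock timing with light, and switches on FLOWERING LOCUS T (FT) in the leaf, whose protein moves to the shoot tip and starts flowering.

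The label holds for most members but not all. 10 of the 119 were caught by chance letters: 6 gamma-glutamyl hydrolases, enzymes of folate turnover, because the letters LHY occur in "glutamylhydrolase", and 4 chloroplast import proteins, because TOC1 occurs in "Toc159". 109 members were left without them. 104 of the 119 had their best protein match in Medicago, 9 in Pisum and 6 in Glycine. The members were 223 to 4243 bases long with a median of 1102. Among them, 67 were contigs in 27 assembly clusters, which share sequence with one another and are not separate genes by default, and 52 were single transcripts. Short fragments were common: 31 members (26.1%) were under 500 bases, against 40.2% of all legume-matched transcripts.

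The libraries held 22.8, 22.7 and 22.3 M uniquely aligned fragments (M, mega) in ungrazed tolerant, grazed tolerant and grazed intolerant plants, the order in which 3 values are given throughout. The floor of 3 fragments corresponded to 0.131 to 0.135 FPKM for a transcript of 1000 bases. Libraries differed in composition. Legume-matched transcripts took 79.9%, 80.4% and 88.8% of the fragments, and 1 assembly cluster, CL4238, took 7.76%, 11.5% and 3.27%. Leaf markers (41 transcripts: Rubisco small subunit, carbonic anhydrase, chlorophyll-binding proteins) summed to 10402, 11209.6 and 26286.2 FPKM. Between the grazed libraries, 17 of the 39 leaf markers tested were higher in intolerant plants past the threshold used below and 2 were lower. Stem and xylem markers (84 transcripts) summed to 1316.2, 1427.6 and 1334.7 FPKM. The near-level sums hide single differences. With grazing in tolerant plants 29 of 82 tested were higher and 8 lower, with a median log2 ratio of 0.5. In intolerant against tolerant grazed plants 21 of 83 were higher and 10 lower, with a median of 0.09. For leaf markers the tolerant libraries gave 6 of 40 higher and 4 lower. Root and nodule markers (17 transcripts) summed to 316.8, 139.4 and 109.1 FPKM; no leghemoglobin or Casparian strip transcript was matched, so the root part of the pools was checked only weakly. In pooled tissue, fewer cells of a type and less RNA per cell cannot be told apart.

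Taken as a set, the members had the same weight in both tolerant libraries and more in the intolerant one. They took 1617.5, 1618.1 and 2414.7 fragments per M aligned. Their median level was 5.49, 5.84 and 8.98 FPKM. The highest member was a CONSTANS-like transcript, Unigene9810, in every library. At or under the floor were 8 members in each tolerant library and 0 in the intolerant library. Of the 108 members with 20 or more fragments in a library, 74 were highest in intolerant grazed plants (68.5%, against 55.7% of legume-matched transcripts). The tolerant grazed library held the lowest value for 50 of them (46.3%, against 29.7%).

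A transcript is called higher or lower here when the log2 ratio of FPKM reaches 1 in absolute value, with 0.01 in place of an FPKM of 0 and more than 3 fragments in one of the libraries compared. Between grazed and ungrazed tolerant plants, 15 of 116 members tested were higher (12.9%) and 8 were lower (6.9%), with a median log2 ratio of -0.02. The background shares were 15.7% higher and 24.5% lower over all transcripts, and 15.0% higher and 8.47% lower over legume-matched transcripts, whose median was 0.12. The members' shares were near those of the legume-matched background. Most calls came from short transcripts: 16 of the 28 tested members under 500 bases were called, against 3 of the 65 of 1000 bases or more. An interval lay wholly past a log2 ratio of 1 for 2 members and wholly under -1 for 1.

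Between intolerant and tolerant grazed plants, 41 of 119 members were higher in intolerant plants (34.5%) and 4 were lower (3.36%), with a median of 0.62. The 8 members at or under the floor in tolerant grazed plants were tested only through the intolerant library and could not have been called lower. Over all transcripts 26.0% were higher and 21.1% lower, and over legume-matched transcripts 22.3% were higher and 13.1% lower, with a median of 0.28. An interval lay wholly past 1 for 21 members and wholly under -1 for 1. Among members of 1000 bases or more, 16 of 65 were higher (24.6%, against 11.3% of legume-matched transcripts of that length) and 1 was lower (1.54%, against 7.63%). The whole table shifted in this comparison: the scaling factors of edgeR's TMM method moved every log2 ratio down by 0.28 and a median-ratio scaling by 0.24. After TMM scaling 33 members were higher (27.7%, against 16.2% of legume-matched transcripts) and 7 were lower (5.88%, against 17.2%), with a median of 0.35 against 0.00. Both comparisons use the tolerant grazed library, so a high or low count in that library moves both.

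**Figure D1:**
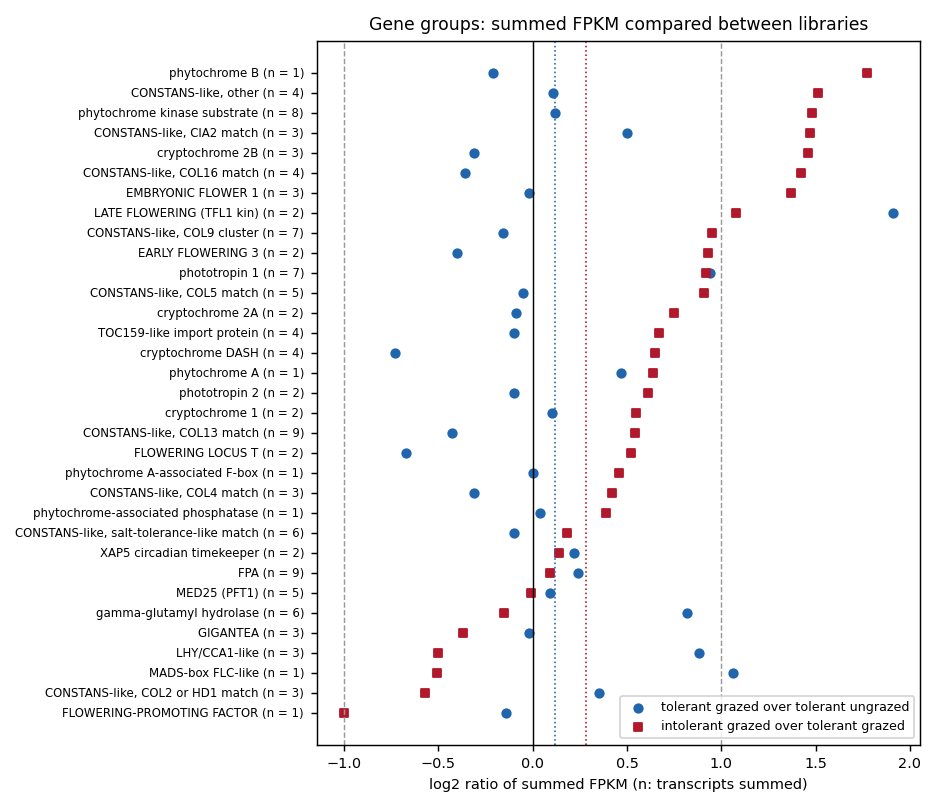
Log2 ratio of summed FPKM for 33 gene groups, formed by protein match, in tolerant grazed over tolerant ungrazed plants (blue circles) and intolerant over tolerant grazed plants (red squares); n is the number of transcripts summed, dashed lines mark ratios of -1 and 1, and dotted lines mark the medians of legume-matched transcripts, 0.12 and 0.28. Most red squares lie to the right of 0, with phytochrome B at 1.77 at the top, while the blue circles scatter around 0, with LATE FLOWERING at 1.91 farthest out.

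3 members matched the dawn genes LHY and CCA1, and 1 of them was called. Unigene11818, which matched LHY of Arabidopsis and circadian clock-associated protein 1a of Medicago truncatula, stood at 2.05, 4.26 and 1.69 FPKM. It was highest in tolerant grazed plants, 2.07-fold above ungrazed plants (log2 ratio 1.05, interval 0.56 to 1.57), and 2.52-fold lower in intolerant than in tolerant grazed plants (log2 ratio -1.33, interval -1.89 to -0.80). The first of these calls fell to a log2 ratio of 0.96 under median-ratio scaling. Unigene18079, with the same matches, stood at 1.96, 3.81 and 3.34 FPKM, and Unigene18801, which matched CCA1, at 2.01, 3.04 and 2.83 FPKM. All 3 were highest in tolerant grazed plants; Unigene11818 was lowest in intolerant plants and the other two in ungrazed plants. Their counts were low, 16 to 105 fragments, and the intervals of Unigene18079 and Unigene18801 between the grazed libraries included 0, as did that of Unigene18801 between the tolerant libraries (-0.38 to 1.61). Most such matches outside the members, which are not separate genes by default, went the other way. A further 8 legume-matched transcripts had LHY or CCA1 as their Swiss-Prot match, a list made after the values were seen, and summed to 24.1, 16.4 and 36.7 FPKM. Of these 8, 0 were higher and 5 lower in grazed than in ungrazed tolerant plants (median log2 ratio -1.14). Between the grazed libraries the same 5 were higher in intolerant plants and 1 was lower (median 2.13). Of legume-matched transcripts, 8.47% were lower in the first comparison and 22.3% higher in the second. The 5 share their match names, and whether they are pieces of 1 gene was not tested. In tolerant grazed plants Unigene43911, Unigene43912 and Unigene43913 had only 10, 6 and 8 fragments. Among them Unigene26259, which matched CCA1, stood at 6.21, 2.44 and 15.1 FPKM. The LHY and CCA1 matches thus had no single direction in either comparison.

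GIGANTEA, a protein of the late day that links the clock to CONSTANS, was present as 3 transcripts. The longest, CL11152.Contig2 of 4181 bases, stood at 14.8, 14.1 and 11.4 FPKM. Unigene29727 stood at 16.1, 17.9 and 12.3 FPKM and CL11152.Contig1 at 7.28, 5.59 and 5.24 FPKM. Each was lowest in intolerant plants, and none was called: the log2 ratios between the grazed libraries were -0.09 to -0.54, against the upward shift of the whole table. The summed level of the 3 was 38.2, 37.6 and 29.0 FPKM.

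ELF3, a scaffold of the evening complex, had the opposite order in the grazed libraries. Unigene15387, of 2553 bases, stood at 22.4, 16.5 and 30.9 FPKM, and Unigene23752, of 1836 bases, at 7.92, 6.47 and 13.0 FPKM. Both were lowest in tolerant grazed plants and highest in intolerant plants. Between the grazed libraries their log2 ratios were 0.90 (interval 0.79 to 1.02) and 1.00 (interval 0.79 to 1.22), so the second was just at the threshold and the first just inside it. Between the tolerant libraries they were -0.44 and -0.29, with both intervals below 0. The call of Unigene23752 was lost under median-ratio, TMM and TPM scaling.

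The XAP5 CIRCADIAN TIMEKEEPER transcripts, whose Arabidopsis counterpart sets the length of the clock cycle and takes part in RNA processing, were within the threshold in both comparisons. CL10496.Contig1 stood at 12.1, 13.2 and 14.7 FPKM and CL10496.Contig3 at 8.63, 10.9 and 11.8 FPKM. Their summed log2 ratio between the grazed libraries, 0.14, turned to -0.10 under median-ratio and -0.14 under TMM scaling.

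The rule itself matched no pseudo-response regulator. Among transcripts that are not members, 17 matched TOC1 or other pseudo-response regulators in Swiss-Prot, a list made after the annotations were seen. Their summed level was 186.5, 125.6 and 224.2 FPKM. In the first comparison 0 were higher and 4 lower, and in the second 6 were higher and 0 lower. Of legume-matched transcripts, 15.0% were higher and 8.47% lower in the first, and 22.3% higher and 13.1% lower in the second. TOC1 alone (5 transcripts) summed to 46.0, 37.4 and 59.5 FPKM. Of the 4 lower calls, 3 matched APRR2, among them CL2321.Contig1 and CL2321.Contig3, contigs of 1 cluster. The 5 APRR2 matches summed to 79.6, 39.0 and 89.4 FPKM, with 3 lower in the first comparison and 3 higher in the second. Whether APRR2 acts in the clock was not tested. The PRR5 and PRR7 matches (7 transcripts) had a median log2 ratio of 0.10 in the first comparison. In that comparison the lowest ratios were those of Unigene11757, which matched PRR5 and stood at 17.8, 5.01 and 13.7 FPKM (log2 ratios -1.83 and 1.45), and of CL2321.Contig1, which matched APRR2 and stood at 22.9, 6.84 and 30.8 FPKM (log2 ratios -1.75 and 2.17). All clock matches outside the members that were neither TOC1 nor pseudo-response regulators, 23 transcripts with the 8 LHY and CCA1 matches included, summed to 140.0, 102.7 and 176.9 FPKM. In the first comparison 0 of the 23 were higher and 7 lower, and in the second 8 were higher and 1 lower, against the same backgrounds. Both sums were lowest in the tolerant grazed library. A search by clock words (LUX, zeitlupe, FKF1, reveille and the like) gave 4 transcripts, which are part of the 23 and not further ones. They summed to 32.2, 27.6 and 45.1 FPKM, and 0 were called in the first comparison and 1 was higher in the second.

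**Figure D2:**
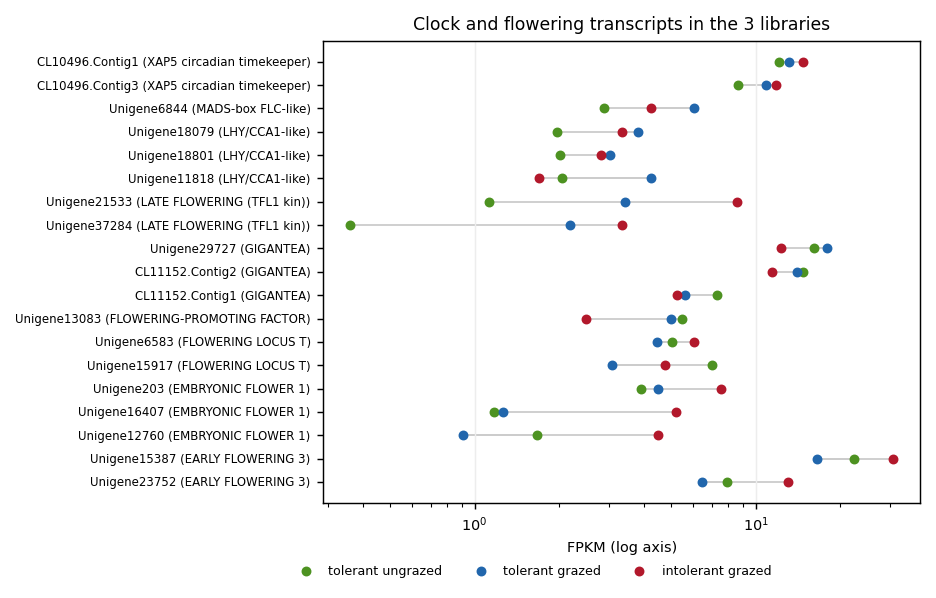
FPKM (log axis) of the clock and flowering transcripts in tolerant ungrazed (green), tolerant grazed (blue) and intolerant grazed (red) plants, 1 library each; a grey line joins the 3 values of a transcript, and gene names give the protein match. The 3 LHY and CCA1 matches among the members have blue points at the right end, 3.04 to 4.26 FPKM, whereas both ELF3 transcripts have blue points at the left end and red points at the right.

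CONSTANS-like zinc finger proteins made up the largest family, with 44 members. Their summed level was 542.1, 481.7 and 760.0 FPKM. Grazed against ungrazed tolerant plants gave 0 higher and 1 lower (2.27%), with 16 positive ratios and a median of -0.14. Of legume-matched transcripts, 15.0% were higher and 8.47% lower in that comparison. Intolerant against tolerant grazed plants gave 15 higher and 1 lower, with 37 positive ratios and a median of 0.67. The 15 are 34.1% of the family, against 22.3% of legume-matched transcripts, and the 1 lower is 2.27%, against 13.1%. Among the 33 of 1000 bases or more, 11 were higher and 0 lower, with a median of 0.75. Of legume-matched transcripts of that length, 11.3% were higher and 7.63% lower, with a median of 0.22. The leaf markers moved in the same direction between the grazed libraries (26286.2 against 11209.6 FPKM); their part in the result was not tested.

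Transcripts matching COL16 of Arabidopsis were higher in intolerant than in tolerant grazed plants, 3 of the 4 past the threshold. CL1956.Contig1 stood at 14.9, 7.19 and 33.0 FPKM. It was lowest in tolerant grazed plants, 2.07-fold below ungrazed plants (log2 ratio -1.05, interval -1.25 to -0.85) and 4.59-fold below intolerant plants (log2 ratio 2.20, interval 2.02 to 2.38). It was the only CONSTANS-like transcript called in both comparisons, and the first call fell to -0.94 under TPM. CL7883.Contig1 stood at 22.6, 19.4 and 48.1 FPKM, and CL7883.Contig2 at 13.5, 8.59 and 26.6 FPKM. Both were called higher in intolerant plants, while Unigene6493, from 316, 385 and 589 fragments, was within the threshold.

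The most abundant group matched COL4, with 3 transcripts. Unigene9810 stood at 81.7, 55.0 and 81.7 FPKM, lowest in tolerant grazed plants and equal in the other 2 libraries at this precision. CL920.Contig1 stood at 36.0, 34.2 and 48.2 FPKM and CL920.Contig2 at 45.0, 41.8 and 45.5 FPKM, and none of the 3 was called. Among the COL5 matches, CL3269.Contig2 stood at 33.9, 36.0 and 70.2 FPKM, a log2 ratio of 0.96 (interval 0.88 to 1.05) between the grazed libraries. Unigene3421 was higher in each library than in the one before, at 2.93, 5.27 and 12.9 FPKM, with log2 ratios of 0.85 and 1.29. The related Unigene3141 was lower in grazed than in ungrazed tolerant plants, at 10.7, 6.10 and 8.48 FPKM (log2 ratio -0.81, interval -1.07 to -0.55), so members with one protein match did not move together.

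The 3 transcripts that matched COL2 of Arabidopsis or HD1 of rice, close relatives of CONSTANS, were lower in intolerant than in tolerant grazed plants. Unigene15402 stood at 8.50, 15.0 and 6.69 FPKM. It was highest in tolerant grazed plants, with a log2 ratio of 0.81 (interval 0.54 to 1.09) over ungrazed plants, and 2.24-fold lower in intolerant plants (log2 ratio -1.16, interval -1.46 to -0.87). CL8806.Contig1 stood at 15.8, 15.4 and 12.4 FPKM and CL8806.Contig2 at 15.4, 20.1 and 15.1 FPKM, with log2 ratios of -0.31 and -0.42 between the grazed libraries and intervals below 0. Summed, the group stood at 39.7, 50.5 and 34.1 FPKM, while the other CONSTANS-like groups were higher in intolerant than in tolerant grazed plants as deposited.

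Transcripts matching CIA2, which in Arabidopsis promotes genes of chloroplast protein import and chloroplast ribosomes, were higher in intolerant than in tolerant grazed plants in 2 of 3 cases. Unigene10440 stood at 5.66, 7.60 and 27.2 FPKM (3.58-fold between the grazed libraries, log2 interval 1.54 to 2.15), and CL4946.Contig4 at 3.57, 4.75 and 17.4 FPKM (3.67-fold, log2 interval 1.62 to 2.13). The shorter CL4946.Contig2 stood at 3.47, 5.54 and 5.02 FPKM and did not share the difference. Unigene8908, which matched COL10, stood at 1.54, 2.44 and 10.8 FPKM (4.43-fold, log2 interval 1.82 to 2.49). Unigene39630, a fragment of 279 bases, had the highest ratio of the family between the grazed libraries at a log2 ratio of 2.99 (interval 1.64 to 4.69), from 8, 5 and 39 fragments.

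Clusters with many contigs were mixed. The COL9 cluster, CL1036, summed to 39.0, 34.9 and 67.4 FPKM over 7 contigs, 3 of them called higher in intolerant plants. Its longest contig, CL1036.Contig6, matched a protein of another family in Swiss-Prot, so its value is uncertain. The COL13 cluster, CL974, summed to 81.5, 60.4 and 87.7 FPKM over 9 contigs, again lowest in tolerant grazed plants, with 3 called higher in intolerant plants. Under TMM scaling 2 of the COL9 contigs and 0 of the COL13 contigs were called. The salt-tolerance-like group of 6, B-box proteins that act in light signalling, summed to 79.5, 74.3 and 84.0 FPKM. Its clusters went opposite ways: CL11942.Contig1 stood at 24.2, 14.7 and 25.7 FPKM, and CL3252.Contig1 at 9.86, 14.5 and 9.18 FPKM. The sum of that group changed direction with scaling, from a log2 ratio of 0.18 to -0.06 under median-ratio and -0.10 under TMM scaling.

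**Figure D3:**
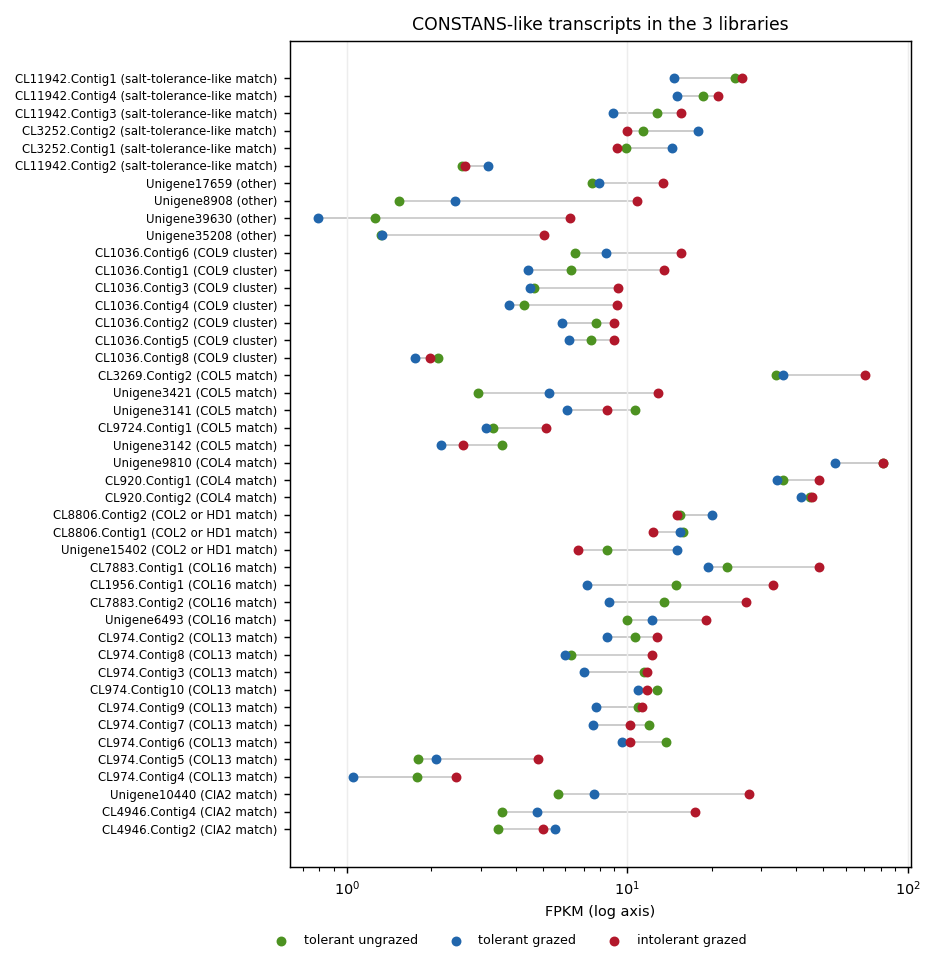
FPKM (log axis) of the 44 CONSTANS-like transcripts in tolerant ungrazed (green), tolerant grazed (blue) and intolerant grazed (red) plants, 1 library each, ordered by the protein they matched. Red points lie to the right of blue for 37 of the 44, and the COL2 or HD1 matches are the group in which all 3 red points lie to the left of blue.

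FT, the mobile flowering signal, was counted from few fragments. Unigene15917 had 57, 25 and 38 fragments, or 6.98, 3.08 and 4.76 FPKM, and was 2.26-fold lower in grazed than in ungrazed tolerant plants (log2 ratio -1.18, interval -1.92 to -0.48). Unigene6583 stood at 5.06, 4.47 and 6.06 FPKM, with intervals that included 0 in both comparisons. Both FT transcripts were lowest in tolerant grazed plants. They are short, 358 and 563 bases, and were not tested for whether they belong to one gene.

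LATE FLOWERING of pea is a repressor of flowering related to TERMINAL FLOWER 1, of the same protein family as FT. Its matches were higher in both grazed libraries. Unigene21533 had 8, 24 and 59 fragments, or 1.13, 3.43 and 8.56 FPKM, and was called higher in both comparisons (log2 ratios 1.60, interval 0.39 to 2.96, and 1.32, interval 0.61 to 2.07). Unigene37284 had 2, 12 and 18 fragments, a ratio of 6.05 between the tolerant libraries with a log2 interval of 0.43 to 5.80. The order of the libraries was the same for both, ungrazed lowest and intolerant highest.

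The remaining flowering members were regulators of the floral transition. EMBRYONIC FLOWER 1, a chromatin protein that holds back flowering in Arabidopsis, had 3 transcripts, all higher in intolerant plants: Unigene203, the longest, stood at 3.92, 4.50 and 7.54 FPKM (log2 ratio 0.74, interval 0.54 to 0.95), and the shorter Unigene12760 at 1.67, 0.911 and 4.49 FPKM (log2 ratio 2.30, interval 1.42 to 3.29). Unigene16407 stood at 1.17, 1.26 and 5.22 FPKM. The FLOWERING-PROMOTING FACTOR match, Unigene13083, stood at 5.49, 4.99 and 2.49 FPKM, 2.00-fold lower in intolerant than in tolerant grazed plants. A MADS-box transcript named after FLOWERING LOCUS C, Unigene6844, stood at 2.90, 6.05 and 4.24 FPKM, 2.09-fold higher with grazing in tolerant plants, a call that fell to a log2 ratio of 0.97 under median-ratio scaling. Its Swiss-Prot match was AGL8 of tomato, a protein of another MADS-box branch, so the name is uncertain.

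FPA, an RNA-binding protein of the autonomous flowering pathway, had 9 transcripts that summed to 42.7, 50.6 and 53.9 FPKM. The 5 longest of them lay between -0.10 and 0.34 on the log2 scale in the first comparison. Only short ones were called: CL10330.Contig4, of 564 bases, had 12, 39 and 37 fragments (log2 ratio 1.71, interval 0.75 to 2.78), and CL7934.Contig2, of 472 bases, had 1, 30 and 19 fragments, a ratio of 30.2 with a log2 interval of 2.33 to 10.27. None of the 9 was called between the grazed libraries.

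Receptors for light were higher in intolerant than in tolerant grazed plants as a class. The 22 transcripts of phytochromes, cryptochromes and phototropins summed to 144.7, 163.5 and 283.8 FPKM. Grazed against ungrazed tolerant plants gave 3 higher and 5 lower of 20 tested, with a median of -0.04. These are 15.0% and 25.0%, against 15.0% and 8.47% of legume-matched transcripts, and all 3 and all 5 were under 1000 bases. Intolerant against tolerant grazed plants gave 12 higher and 0 lower of 22, with 21 positive ratios and a median of 1.10. The 12 are 54.5%, against 22.3% of legume-matched transcripts, but 10 of them were under 1000 bases. In tolerant grazed plants the contigs of CL3074 had 1 and 2 fragments, and those of CL3329 also 1 and 2. CL6195.Contig1 had 1 and Unigene14188 had 0. These transcripts passed the fragment filter only through the intolerant library, so none of them could have been called lower. Among the 9 receptor transcripts of 1000 bases or more, all 9 ratios were positive, 2 were called and the median was 0.62. Of legume-matched transcripts of that length, 11.3% were higher and the median was 0.22. Both calls, CL2118.Contig1 and Unigene6156, were lost under TMM scaling, at 0.78 and 0.86. As for the CONSTANS-like family, leaf markers were also higher in the intolerant library (17 of 39 called higher), and their part was not tested.

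Phytochrome A, the far-red receptor, was a single transcript of 4243 bases, Unigene17798. It stood at 18.1, 25.1 and 39.1 FPKM, from 1756, 2413 and 3699 fragments. The level was higher in each library than in the one before it, with log2 ratios of 0.47 (interval 0.38 to 0.56) and 0.64 (interval 0.56 to 0.71), neither of which reached the threshold. Under TMM scaling these ratios were 0.42 and 0.36. Phytochrome B, the main red light receptor of mature plants, was matched only by a fragment of 306 bases, Unigene7727, at 5.01, 4.33 and 14.8 FPKM. That fragment was 3.42-fold higher in intolerant than in tolerant grazed plants (log2 ratio 1.77, interval 1.17 to 2.41) from 35, 30 and 101 fragments.

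Partners of the phytochromes did not move alike, and their transcripts differed in length and depth. PHYTOCHROME KINASE SUBSTRATE proteins, which act in phytochrome and phototropin signalling, were matched by 8 short transcripts of 267 to 815 bases. They summed to 8.26, 8.96 and 25.0 FPKM, from 70, 76 and 214 fragments. Of the 8, 7 were called higher in intolerant plants, against 22.3% of legume-matched transcripts of all lengths and depths. Among the 7, CL12109.Contig1 and CL12109.Contig2, contigs of 1 cluster, had 1 and 2 fragments in tolerant grazed plants and could not have been called lower. The 8 are not separate genes by default. The most abundant, Unigene5396, had 21, 20 and 50 fragments (log2 ratio 1.34, interval 0.57 to 2.17). The phytochrome-associated protein phosphatase, Unigene15441, which acts on phytochrome in pea and Arabidopsis, stood at 51.6, 53.2 and 69.5 FPKM, and the F-box protein of phytochrome A signalling, Unigene23954, at 10.5, 10.4 and 14.3 FPKM. Neither was called. MED25, a Mediator subunit first named PHYTOCHROME AND FLOWERING TIME 1, summed to 27.8, 29.6 and 29.3 FPKM over 5 transcripts, none of them called in either comparison.

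Cryptochrome 1 was carried by 2 long contigs of 1 cluster. CL2791.Contig1 stood at 20.3, 23.2 and 32.1 FPKM and CL2791.Contig2 at 15.1, 14.8 and 23.6 FPKM, with log2 ratios of 0.47 and 0.67 between the grazed libraries, under the threshold. For cryptochrome 2A, CL2118.Contig2 stood at 24.6, 22.3 and 33.9 FPKM and CL2118.Contig1 at 8.65, 8.96 and 18.6 FPKM, the second called higher in intolerant plants (log2 ratio 1.06, interval 0.87 to 1.24). Cryptochrome 2B, Unigene6156, stood at 7.08, 6.38 and 14.1 FPKM (log2 ratio 1.14, interval 0.93 to 1.35). Under TMM scaling neither was called, at 0.78 for CL2118.Contig1 and 0.86 for Unigene6156; the first was lost under median-ratio (0.82) and TPM (0.96) scaling too, the second under median-ratio scaling (0.90). In these 5 transcripts the tolerant libraries lay close together, with log2 ratios of -0.15 to 0.19, and the intolerant library lay above both.

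DASH cryptochromes, relatives of the DNA repair photolyases, did not all follow that order. Unigene20967, the longest at 808 bases, stood at 3.90, 3.77 and 3.44 FPKM. Unigene14188, of 306 bases, had 20, 0 and 10 fragments. With the floor of 3 fragments in place of 0, it was 6.62-fold lower in grazed than in ungrazed tolerant plants. The log2 interval of that ratio lay below -2.29. On the same footing it was 3.39-fold higher in intolerant than in tolerant grazed plants, with a log2 interval above 1.19.

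Phototropin 1 showed the clearest stepwise order of the receptors. The long contigs CL2670.Contig2 (3485 bases) and CL2670.Contig3 (3231 bases) stood at 8.36, 16.0 and 24.6 FPKM and at 7.11, 13.9 and 20.3 FPKM. Tolerant grazed plants lay 1.91-fold and 1.96-fold above ungrazed plants (log2 ratios 0.94, interval 0.80 to 1.07, and 0.97, interval 0.82 to 1.13), just inside the threshold. Intolerant plants lay a further 1.54-fold and 1.46-fold higher (log2 ratios 0.62 and 0.54), which includes the upward shift of the whole table, 0.28 by TMM. Unigene1859 followed the same order at 1.80, 4.01 and 11.8 FPKM and was called in both comparisons. CL2670.Contig4, of 225 bases, had 0, 7 and 34 fragments. With the fragment floor in place of 0, it was 2.35-fold higher in grazed than in ungrazed tolerant plants. The log2 interval of the ratio between the tolerant libraries lay above 0.54. The short contigs of CL3329 broke the order: both were lowest in tolerant grazed plants, from 1 and 2 fragments. Summed over its 7 transcripts, phototropin 1 stood at 19.7, 37.7 and 71.6 FPKM. The log2 ratios of these sums, 0.94 and 0.92, became 0.89 and 0.65 under TMM scaling.

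Phototropin 2, which in Arabidopsis acts mainly in strong blue light, did not share that order. Its long transcript Unigene3490, of 2884 bases, stood at 14.0, 14.0 and 17.0 FPKM from 920, 912 and 1091 fragments. The log2 ratio was 0.00 between the tolerant libraries (interval -0.14 to 0.13) and 0.28 between the grazed ones (interval 0.15 to 0.41), about the shift of the whole table. A fragment of 324 bases, Unigene35560, was placed in this group by hand: its protein match said only phototropin, and it had no Swiss-Prot match. It had 15, 7 and 42 fragments and was called in both comparisons, although the interval of the first (-2.62 to 0.29) included 0.

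**Figure D4:**
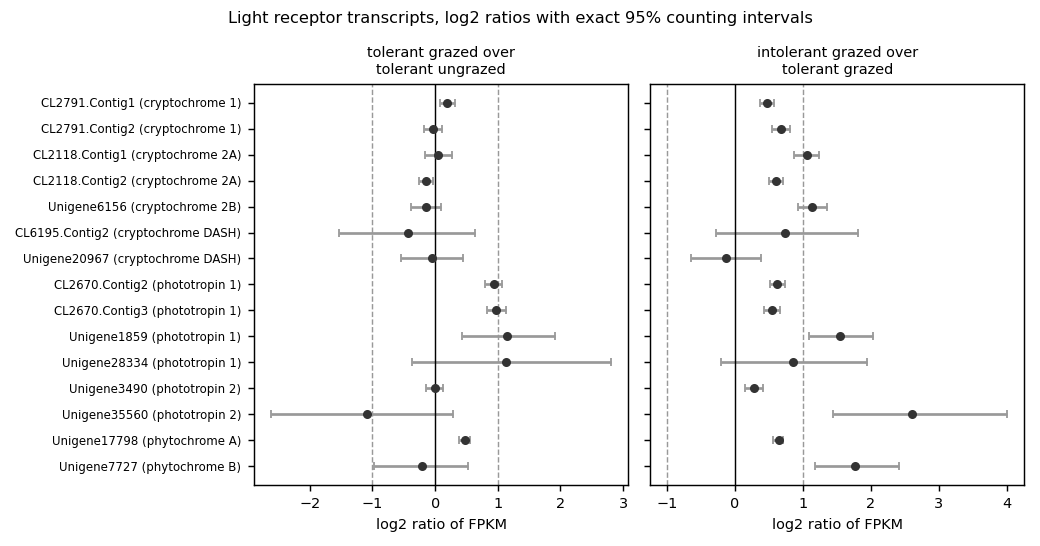
Log2 ratio of FPKM of light receptor transcripts with at least 20 fragments in one library and more than 0 in all, with exact 95% intervals (counting error only), in tolerant grazed over ungrazed plants (left) and intolerant over tolerant grazed plants (right); dashed lines mark -1 and 1. On the left the long phototropin 1 contigs, at 0.94 and 0.97, stand apart from cryptochromes and phototropin 2 near 0; on the right all points but 1 DASH cryptochrome lie above 0.

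The chance matches had patterns of their own. The 6 gamma-glutamyl hydrolases summed to 40.2, 71.0 and 63.9 FPKM, and 3 of the 15 members called higher in grazed tolerant plants belonged to them, among them CL13399.Contig2 at 2.77, 10.2 and 11.4 FPKM and CL6540.Contig4 at 4.02, 10.9 and 3.49 FPKM. The 4 import proteins summed to 43.2, 40.2 and 63.7 FPKM, with 2 called higher in intolerant plants. Without all 10, 12 members were higher and 8 lower in the first comparison, and 38 higher and 3 lower in the second.

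Other genes of light signalling, flowering and clock output were counted beside the members by words in their annotation. Light signalling genes (38 transcripts, among the words COP1, HY5, DET1, UVR8 and NPH3) summed to 156.4, 191.4 and 209.6 FPKM. Of these, 6 of 34 tested were higher (17.6%, against 15.0% of legume-matched transcripts) and 2 lower with grazing in tolerant plants, and 11 of 37 were higher (29.7%, against 22.3%) and 2 lower in intolerant plants. Flowering regulators (45 transcripts, among the words SOC1, FRIGIDA, vernalization and squamosa promoter) summed to 671.4, 704.0 and 893.9 FPKM, with 13 higher (28.9%) and 3 lower in the first comparison and 8 higher (17.8%) and 2 lower in the second, against the same backgrounds. Light-harvesting proteins, textbook outputs of the clock and also leaf proteins, summed to 2588, 4411 and 11199.7 FPKM over 11 transcripts. Few of the 11 passed the threshold, 1 higher in the first comparison and 2 higher in the second, with median log2 ratios of 0.42 and 0.64.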

How the data were processed

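RNA of 3 pooled samples was sequenced on a HiSeq2000. The authors assembled the reads with Trinity, clustered transcripts with TGICL, counted uniquely aligned fragments with SOAP and annotated transcripts by blastx and Blast2GO; versions are not given in the sources used here. The authors deposited the count of fragments per transcript, not normalized, and FPKM, the count per kilobase and per mega-fragment aligned. FPKM recomputed from count and length differed from the deposited value by at most 5e-05. Per-sample columns left unused numbered 0. Transcripts have no genome position and their sequences were not used here.

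Groups followed the labels. Log2 ratios of deposited FPKM were taken with 0.01 in place of 0, over transcripts with more than 3 fragments in either library, and called at 1 in absolute value. Intervals and floors cover counting error only, since fragments without molecular identifiers are not independent molecules. The total of 22.3 to 22.8 M fragments per library sets that precision. The transcripts named in the text were, in each of 13 role classes, the 4 with the highest mean FPKM, and in each comparison the 5 highest and 5 lowest log2 ratios among members with 20 or more fragments. Other transcripts described, and the 33 gene groups, were chosen after their values or annotations were seen. The groups were formed by Swiss-Prot match or by words of the best protein match. CL11942.Contig2, CL3252.Contig2 and Unigene35560, without a Swiss-Prot match, were placed by hand. The members and lists were chosen with earlier results of these data known. Alternatives covered added constants, filters, thresholds, scaling, a Poisson test, cluster sums and member lists. Python 3.11.15 with pandas 2.3.3 and scipy 1.17.1, and edgeR 4.0.16 in R 4.3.3 for TMM factors, were used, and the computations were tested on simulated data.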

Additional observations from a re-analysis of the deposited data

How the results depend on the processing

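With 1 library per group, no replicate could be left out and no count model could be fitted with a spread between samples. No paired analysis was possible because each group has 1 library. Of 172 values recomputed under alternatives, 106 stayed within the tolerance and 66 moved. No value past the threshold changed sign, but 5 small ones in the first comparison did: the median (0.09 under TPM, 0.03 by cluster sums), GIGANTEA (-0.02 to 0.09, TPM), cryptochromes (-0.08 to 0.03, TPM) and phytochrome partners (0.05 to -0.05, median ratio). For grazed against ungrazed tolerant plants (15 higher, 8 lower), the calls were few and fell to 7 and 1 with 1 added to every FPKM, to 9 and 3 with at least 20 fragments, to 3 and 1 at a log2 threshold of 2, to 7 and 2 with the Poisson test added, and to 6 and 1 over members of at least 500 bases; with a mean FPKM of at least 1, 4 were lower. The median of -0.02 became -0.11 under median-ratio scaling. For intolerant against tolerant grazed plants (41 higher, 4 lower), 16 were higher and 0 lower at a threshold of 2, 23 were higher over members of at least 500 bases, 2 were lower with 1 added, and 7 were lower under TMM scaling. The median of 0.62 became 0.39 under median-ratio and 0.35 under TMM scaling. Of the 13 role classes, 0 passed a log2 ratio of 1 of summed FPKM in the first comparison and 1 in the second, the evening complex, a single ELF3 transcript, at 1.00; 0 passed under median-ratio, TMM or TPM scaling. Counted by 33 gene groups, chosen later, 2 passed in the first comparison and 9 in the second. The legume-fragment scaling, the list without chance matches and the length limit were also chosen after seeing the data.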
